A study of Mus musculus with 27 samples.

Results

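The genes described here encode granins, the enzymes that cut and trim prohormones, and an opioid prohormone. They are Chga, Chgb, Scg2, Scg3, Scg5, Vgf, Pcsk1, Pcsk2, Cpe, and Penk, and they were taken by symbol as 10 of 54532 genes in the table, with earlier results of these data known. Their RNA was measured by bulk RNA-seq in mouse embryonic fibroblasts (MEFs) on the way to induced neurons (iNs). The MEFs came from midgestation embryos without head and heart, with several embryos pooled in a dish. Cells of 3 genotypes were used, wild-type (WT), Per1-/- (allele Per1tm1Drw), and Per2-/- (allele Per2tm1Drw), the mutants carrying a targeted allele of a period gene of the circadian clock. In all groups, lentiviruses with doxycycline-inducible transcription factors, Brn2 and Myt1l among them, and the transactivator M2rtTA had been added on day -3. Doxycycline and serum-free neuronal medium followed from day 0, so that the day 0 cells carried the viruses but had not been induced. RNA was taken on days 0, 2, and 4 with 3 replicates per genotype and day, or 27 libraries in 9 groups. The labels call every sample an induced neuron, including those of day 0.

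Granins are acidic proteins that are packed into dense core vesicles, the storage granules of neurons and endocrine cells, and some of them are themselves precursors of peptides. Within the granule, prohormone convertases cut precursors at pairs of basic residues, and a carboxypeptidase removes the basic residues that remain. Neuronal commitment brings this regulated secretory pathway into use, whereas fibroblasts secrete mainly through the constitutive route, although some of its enzymes are not restricted to neurons.

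The promoters of the granin and convertase genes are shown because a cyclic AMP response element is a known feature of several of them. RefSeq promoter sequences on GRCm38.p6 were matched for 7 of the 10 genes, with 250 bases before and 50 bases after the start site. Vgf, Cpe, and Penk are named only. The palindrome TGACGTCA was found in Chgb, Scg2, and Pcsk1, with its first base at -72, -68, and -78, where -1 is the base before the start site. It was found in 3 of 7 windows, against 1.79% of 32851 promoter windows of the same length. The octamer ATGCAAAT, a letter pattern of POU factors such as Brn2, was in 0 of 7 windows and in 1.74% of all. Both strands were searched, and the letter patterns do not overlap in these genes. The 150 bases before the start site are printed for 3 genes, with the matched letters in capitals.
Chgb promoter, chr2:132781492-132781641, plus strand: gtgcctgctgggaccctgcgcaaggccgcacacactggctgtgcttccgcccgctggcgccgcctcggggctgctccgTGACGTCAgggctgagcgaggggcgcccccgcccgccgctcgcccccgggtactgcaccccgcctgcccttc
Scg2 promoter, chr1:79440027-79440176, minus strand: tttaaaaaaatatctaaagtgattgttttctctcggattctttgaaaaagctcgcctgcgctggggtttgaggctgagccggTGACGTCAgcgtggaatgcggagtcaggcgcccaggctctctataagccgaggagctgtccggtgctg
Pcsk1 promoter, chr13:75089707-75089856, plus strand: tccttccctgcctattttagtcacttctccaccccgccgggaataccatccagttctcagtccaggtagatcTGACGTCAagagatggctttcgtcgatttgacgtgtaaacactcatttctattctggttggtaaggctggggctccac
A match of letters is a description of the sequence and not a binding site.

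Values are FPKM, fragments per kilobase of exon divided by a scaling factor of the library, as the authors deposited them. Each value could be solved for whole fragments. The scaling factor was below the fragments on genes in each library of day 0. It was above them in each library of days 2 and 4. In WT replicate 1 it was 19028608 against 21906593 on day 0, and 18683171 against 17472487 on day 4. Relative to scaling by fragments on genes, deposited values of days 2 and 4 are thus lowered against day 0. Depth was 15815013 to 24264097 fragments per library. Per1 was at 3.23 to 4.96 FPKM in Per1-/- cells and 5.44 to 6.33 in WT cells on day 0, a log2 difference of -0.50 ± 0.14 (SE) with an adjusted p of 0.771 in limma, and the differences of days 2 and 4 were -0.19 and -0.21. The Per1-/- label was thus not set apart by a called difference in Per1 transcript. Per2 was at 1.87 to 2.00 FPKM in the libraries labelled Per2-/- and at 0.817 to 0.957 in WT libraries on day 0. The libraries labelled Per2-/- thus held more Per2 transcript than WT libraries (log2 difference 1.03 ± 0.13, adjusted p 0.00114), and the text refers to them by that label. A targeted allele can still give RNA. By western blotting, the study found PER1 protein lost in Per1-/- MEFs and PER2 protein lost in Per2-/- MEFs. Those blots were not analysed here. The summed level of 15 neuron markers was 64.1 to 132 FPKM on day 0 and 142 to 244 on day 4, while Rbfox3, a marker of mature neurons, averaged 0.101 FPKM in WT cells on day 4. The 12 fibroblast markers remained at 4726 to 6544 FPKM in sum on day 4. The 15 macrophage markers summed to 138 to 1140 FPKM on day 0 and 469 to 2215 on day 4. The libraries were therefore mixtures, in which more cells of a type and more RNA per cell cannot be told apart.

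Between day 0 and day 4, 5 granins and the convertase Pcsk2 rose in all 3 genotypes, Cpe fell, and Vgf fell and came back. Penk was not called in the main fit, but it was in each genotype with a replicate block. The call of Cpe in WT cells was lost after scaling every library to the same FPKM total. A gene was called when limma gave a log2 fold change of 0.58 or more in size and the adjusted p did not exceed 0.05, over 14932 genes that averaged 0.5 FPKM or more. Of the 10 genes, 9 passed this filter. Chga, Chgb, Scg2, Scg3, Scg5, and Pcsk2 passed it through their levels on the later days, so they had to differ from day 0, and with little signal on days 0 and 2 several of them had to rise to day 4. Their number is no evidence of its own. In WT cells, 6 of 9 genes were called higher and 1 lower on day 4 than on day 0, while 22.9% and 20.9% of all tested genes were. With libraries scaled to the same FPKM total, the split over all genes in WT cells was 5485 higher and 1511 lower instead of 3414 and 3120. It was 4687 and 1823 instead of 3378 and 3043 in Per1-/- cells, and 4434 and 1749 instead of 3218 and 2800 in the libraries labelled Per2-/-. The same counts, 6 higher and 1 lower, were found in Per1-/- cells against backgrounds of 22.6% and 20.4%, and in the libraries labelled Per2-/- against 21.6% and 18.8%. The comparisons over days share libraries, since day 2 enters both steps and day 0 both changes from it.

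**Figure D1:**
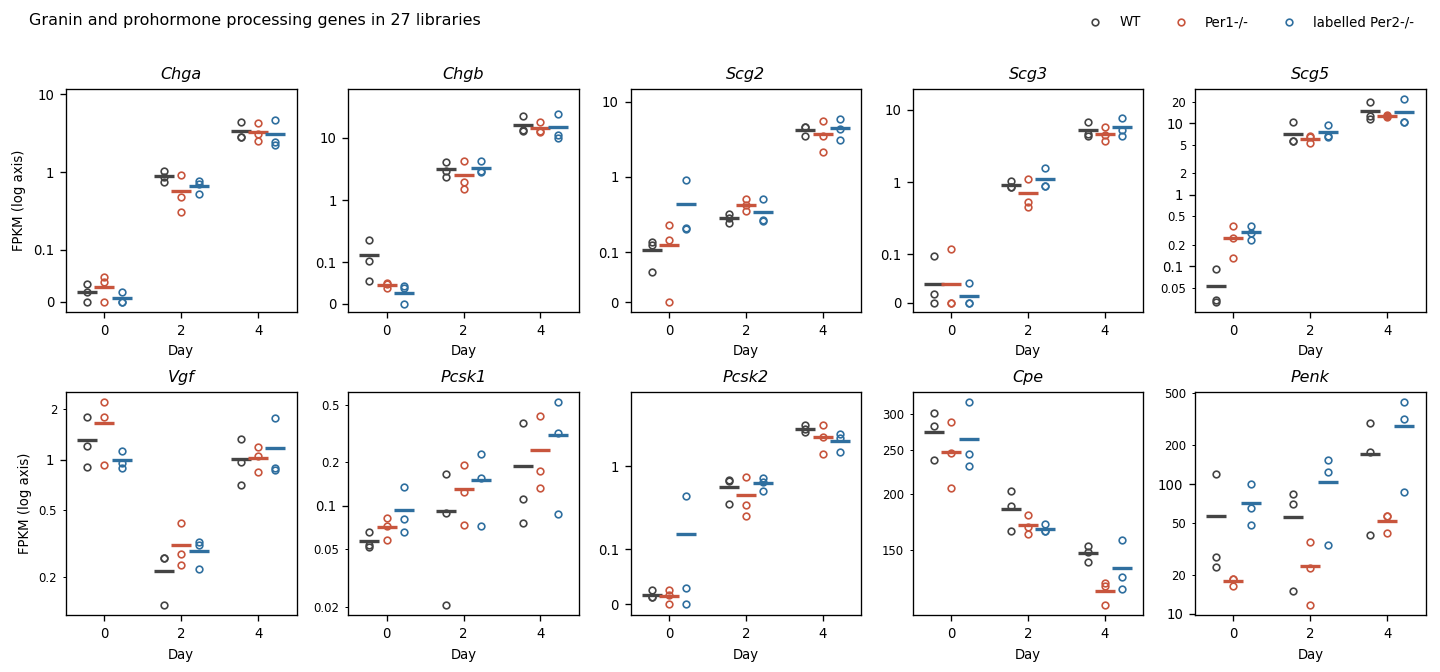
FPKM of each of the 10 genes in the 27 libraries by day (log axes, linear under 0.1 in the panels that reach 0). Circles are libraries, bars are means of 3 libraries, and colours are genotypes. The 5 granins Chga, Chgb, Scg2, Scg3, and Scg5 and the convertase Pcsk2 sat highest on day 4, Vgf was lowest on day 2, and Cpe declined.

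Chga encodes chromogranin A, the most widely used marker of neuroendocrine granules. In WT cells it was at 0.0191, 0.0351, and 0 FPKM on day 0, which came from 1, 2, and 0 fragments. It was at 1.04, 0.756, and 0.878 FPKM on day 2 and then at 2.85, 2.82, and 4.45 on day 4. The 3 days did not overlap. In Per1-/- cells it lay between 0 and 0.0471 FPKM on day 0, between 0.310 and 0.914 on day 2, and between 2.52 and 4.33 on day 4. The corresponding ranges in the libraries labelled Per2-/- were 0 to 0.0192, 0.519 to 0.763, and 2.25 to 4.71. The days were apart in each genotype. On the log2(FPKM + 0.1) scale the change from day 0 to day 4 was 4.86 ± 0.32 (SE) in WT, 4.72 ± 0.32 in Per1-/-, and 4.86 ± 0.32 in the libraries labelled Per2-/- (adjusted p 1.58e-10 for the last). This scale understates the change of a gene near 0. By fragments, the level in WT cells on day 4 was 187-fold that of day 0, with a 95% interval of 63.7 to 910 that covers counting error only.

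Chgb, which encodes chromogranin B, had the highest mean of the granins in every genotype on day 4. WT libraries held 0.230, 0.106, and 0.0546 FPKM on day 0, then 2.35, 2.94, and 4.06 on day 2, and then 13.6, 12.9, and 22.6 on day 4. Values in Per1-/- cells were 0.0377, 0.0474, and 0.0494 on day 0, then 1.53, 4.18, and 1.95 on day 2, and then 12.2, 17.9, and 13.1 on day 4. Each day lay above the one before it in both genotypes. In the libraries labelled Per2-/- it was at 0, 0.0387, and 0.0424 on day 0 and then at 9.86, 24.4, and 11.1 on day 4. The rise from day 0 to day 4 was 6.19 ± 0.36 (log2, SE) in WT, 6.63 ± 0.36 in Per1-/-, and 6.80 ± 0.36 in the libraries labelled Per2-/-. Both steps were called in every genotype, the first with log2 changes of 3.84 to 4.75 and the second with 2.05 to 2.56.

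Scg3 encodes secretogranin III, which tethers chromogranin A to the granule membrane. Its 9 libraries of day 0 were at 0 to 0.118 FPKM, those of day 2 at 0.459 to 1.56, and those of day 4 at 3.77 to 7.80. In WT cells the values were 0.0960, 0.0177, and 0 on day 0, then 0.846, 0.866, and 1.03 on day 2, and then 4.42, 4.69, and 6.89 on day 4. No library of a day overlapped another day. The change from day 0 to day 4 was 5.33 ± 0.35 in WT, 5.18 ± 0.35 in Per1-/-, and 5.67 ± 0.35 in the libraries labelled Per2-/- (log2, SE). A second annotated transcript, Gm37871, lies inside Scg3 on the opposite strand. The study's methods describe nondirectional libraries, whose reads carry no strand, so reads from shared stretches cannot be told apart.

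Scg2 encodes secretogranin II, the precursor of secretoneurin, and it was not called in the first step in WT cells. In WT cells it was at 0.125, 0.135, and 0.0595 FPKM on day 0 and then at 0.246, 0.322, and 0.286 on day 2, a log2 change of 0.91 ± 0.44 with an adjusted p of 0.0817 in limma, although it was called at 1.17 with libraries scaled to the same FPKM total (adjusted p 0.0201). On day 4 it was at 3.51, 4.61, and 4.61 FPKM. The step from day 2 to day 4, 3.49 ± 0.44 on the log2 scale, was called (adjusted p 0.000122). The first step in Per1-/- cells was called at 1.38 ± 0.44, but it rested on day 0 replicate 3, which was at 0 FPKM: without that library it was 0.88 with an adjusted p of 0.0956. The second step was 2.77 ± 0.44 in Per1-/- cells. In the libraries labelled Per2-/-, day 0 replicate 3 stood apart with 0.901 FPKM against 0.203 and 0.211 in replicates 1 and 2. The first step there was -0.08 ± 0.44, or 0.49 without that library, and the second was 3.36 ± 0.44. On the log2 scale, Scg2 made most of its rise after day 2 in each genotype, whereas Scg5 made most of its rise before it.

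Scg5 encodes the neuroendocrine protein 7B2, the chaperone of Pcsk2, and on the log2(FPKM + 0.1) scale its change from day 0 to day 4 in WT cells, 6.58, was the largest of the 9 tested genes. With a pseudocount of 1, that of Chgb was larger (3.90 against 3.86). Scg5 was at 0.0335, 0.0924, and 0.0318 FPKM on day 0, from 1, 3, and 1 fragments, then at 5.59, 5.57, and 10.4 on day 2, and then at 11.5, 12.7, and 19.9 on day 4. The first step was 5.53 ± 0.30 (log2, SE, adjusted p 8.54e-12) and the second 1.04 ± 0.30 (adjusted p 0.0473). The second call was lost in 5 of 6 fits without a library, namely without day 2 replicates 1 or 2 or any day 4 replicate, with log2 changes of 0.81 to 1.20 and adjusted p-values of 0.0696 to 0.180 in those fits. It was also lost with libraries scaled to the same FPKM total (adjusted p 0.0717 in limma) and with no filter (0.0873). The same held in a fit of only the compared groups (0.0933) and with a pseudocount of 0.01 (0.117). Scg5 in Per1-/- cells lay between 0.130 and 0.362 FPKM on day 0, between 5.26 and 6.71 on day 2, and between 12.3 and 12.9 on day 4. The libraries labelled Per2-/- had ranges of 0.237 to 0.370, 6.44 to 9.42, and 10.4 to 21.8 FPKM. The first step was 4.21 ± 0.30 and 4.24 ± 0.30 in these groups, and the second was not called, at 1.04 ± 0.30 (adjusted p 0.0537) and 0.85 ± 0.30 (adjusted p 0.0867). With a pseudocount of 1 the second step was called in both (adjusted p 0.0211 and 0.0417 in limma). In Per1-/- cells it was also called with voom weights, a replicate block, or only the compared groups (0.0307, 0.0300, and 0.0184). Whether this step was called thus depended on the setting in each genotype.

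Vgf encodes a neurotrophin-inducible granin, and it took a course of its own. It was the only one of the 6 granins above 0.8 FPKM in each library of day 0. WT cells held 1.80, 0.910, and 1.21 FPKM on day 0, then 0.260, 0.136, and 0.260 on day 2, and then 0.972, 0.710, and 1.33 on day 4. The values of day 2 lay below those of both other days, which overlapped. Vgf in Per1-/- cells was at 1.81, 2.20, and 0.934 FPKM on day 0, then 0.418, 0.277, and 0.237 on day 2, and then 0.850, 1.20, and 1.05 on day 4. In the libraries labelled Per2-/- it was at 0.898 to 1.12, 0.223 to 0.323, and 0.869 to 1.78 FPKM. The fall to day 2 was called in each genotype, at -2.12 ± 0.32, -2.04 ± 0.32, and -1.51 ± 0.32 (log2, SE, adjusted p 9.72e-06, 1.69e-05, and 0.000471 in limma). The rise to day 4 was called too, at 1.78 ± 0.32, 1.48 ± 0.32, and 1.67 ± 0.32. The call of this rise in Per1-/- cells was lost without day 2 replicates 2 or 3 or day 4 replicate 2 (adjusted p 0.0591 to 0.0686). Day 4 against day 0 gave -0.34 ± 0.32, -0.56 ± 0.32, and 0.16 ± 0.32, none of them called. Without day 0 replicate 3, the fall in Per1-/- cells over the 4 days was called at -0.90 (adjusted p 0.0234).

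**Figure D2:**
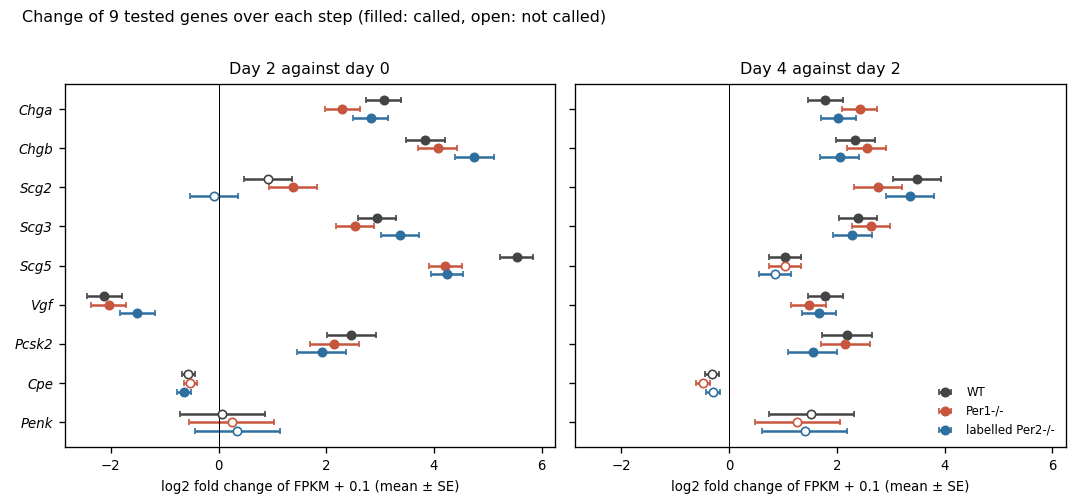
Log2 fold change of FPKM + 0.1 for the 9 tested genes from day 0 to day 2 (left) and from day 2 to day 4 (right), by genotype, with SE bars from limma (3 libraries per group). Filled points were called. Scg5 changed mostly in the first step (5.53 in WT) and Scg2 in the second (3.49 in WT), while Vgf turned from -2.12 to 1.78 in WT.

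Because FPKM is a level per length, the 6 granin genes could be summed. Their sum was 1.11 to 2.90 FPKM on day 0, then 8.63 to 16.9 on day 2, and then 30.9 to 66.4 on day 4. On day 0 Vgf made up 42.2% to 89.2% of it. On day 2 Scg5 made up 49.6% to 64.7% of the sum, and on day 4 Chgb and Scg5 made up 32.0% to 38.1% and 26.2% to 36.2%. The share of Scg2 was 1.60% to 5.19% on day 2 and 6.11% to 12.5% on day 4. Set against the neuron markers of the same library, the granin sum was 1.17% to 3.54% on day 0, 5.77% to 11.0% on day 2, and 19.7% to 27.2% on day 4. These shares did not overlap between days. The granin sum thus rose by more than the summed neuron markers. Several of these markers (Stmn2, with a mean of 14.7 FPKM in WT cells, among them) were already present on day 0. Single markers differed in WT cells from day 0 to day 4. The log2 change was 6.09 for Elavl3, 5.53 for Ina, 5.36 for Dcx, and 4.43 for Snap25, against 4.86 for Chga and 6.19 for Chgb. It was -0.76 for Stmn2, -0.97 for Gap43, and -0.46 for Ncam1, none of them called. The other tested markers rose by 1.13 (Syn1) to 3.74 (Map2). The sums thus do not show that granins rose by more than each neuron marker.

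**Figure D3:**
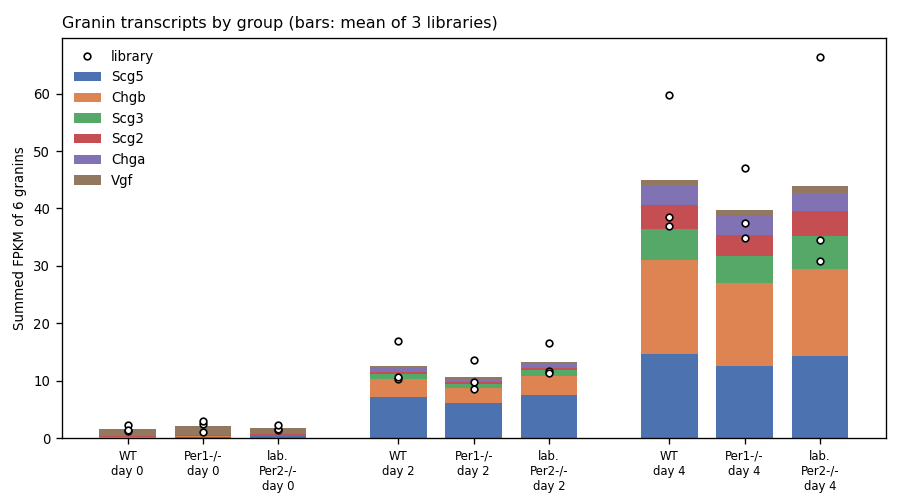
Summed FPKM of the 6 granins by group. Stacked bars are means of 3 libraries for each gene and circles are the sums of single libraries. Vgf dominated the small sums of day 0, Scg5 those of day 2, and Chgb and Scg5 together those of day 4, when 1 library of each genotype (47.0, 59.7, and 66.4 FPKM) stood above the other two.

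On day 4, 1 library of each genotype led the granin sum, WT replicate 3 at 59.7 FPKM, Per1-/- replicate 2 at 47.0, and replicate 2 of those labelled Per2-/- at 66.4. The same 3 libraries had the highest neuron marker sums of their groups, at 240, 228, and 244 FPKM, against 142 to 191 in the other 6 libraries of the day. On day 2, other libraries with the same genotypes and replicate numbers were highest in granin sum, at 16.9, 13.5, and 16.5 FPKM against 8.63 to 11.7. The part of neuronal RNA content in the granin levels was not tested.

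Pcsk2 encodes the convertase PC2, which needs 7B2 to mature. In WT cells it was at 0.0266, 0.0122, and 0.0126 FPKM on day 0, then 0.669, 0.351, and 0.677 on day 2, and then 2.82, 2.57, and 3.16 on day 4, with no overlap. In Per1-/- cells it was at 0 to 0.0261, 0.249 to 0.747, and 1.41 to 3.12 FPKM. In the libraries labelled Per2-/-, the 3 values of day 0 were 0.0287, 0, and 0.433 FPKM, the last from 59 fragments in replicate 3, whereas no other library of day 0 had more than 4. This is the library with the highest Scg2 of day 0. Day 2 was at 0.499 to 0.728 there and day 4 at 1.48 to 2.43. The rise from day 0 to day 4 was 4.65 ± 0.46, 4.31 ± 0.46, and 3.46 ± 0.46 (log2, SE), and the last was 4.21 without that library. The second step was 2.19 ± 0.46, 2.16 ± 0.46, and 1.55 ± 0.46. With a pseudocount of 0.01 it was not called in any genotype (adjusted p 0.125, 0.123, and 0.256 in limma). In a fit of only the compared groups it was not called in Per1-/- cells (adjusted p 0.0524). The call of 1.55 was lost without any of the 6 libraries labelled Per2-/- of days 2 and 4 in turn (adjusted p 0.0847 to 0.133), and that of Per1-/- cells without day 4 replicate 2 (adjusted p 0.0596). The antisense genes Pcsk2os1 and Pcsk2os2 overlap Pcsk2, and reads from shared stretches cannot be told apart in these nondirectional libraries.

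Pcsk1 encodes PC1/3, which acts earlier in the secretory pathway than PC2. It was at 0.0207 to 0.519 FPKM in all 27 libraries, from 2 to 61 fragments, and its mean was too low for the main test. WT cells held 0.0656, 0.0517, and 0.0534 FPKM on day 0 and 0.0764, 0.112, and 0.374 on day 4. The libraries labelled Per2-/- held 0.0811, 0.0663, and 0.135 on day 0 and 0.0881, 0.519, and 0.319 on day 4. By fragments over 3 libraries, the level of day 4 was 3.43-fold that of day 0 in WT cells (95% interval 2.04 to 6.03), 3.36-fold in Per1-/- cells (2.04 to 5.79), and 3.27-fold in the libraries labelled Per2-/- (2.14 to 5.14), with counting error only. When genes with any fragment were tested, Pcsk1 was not called, with log2 changes of 0.73, 0.91, and 0.93 and adjusted p-values of 0.244, 0.129, and 0.119 in limma. Days 0 and 4 did not overlap in WT and Per1-/- cells, and they overlapped in the libraries labelled Per2-/-.

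Cpe encodes carboxypeptidase E, which trims the cut ends of prohormones and is also made by cells outside the endocrine system. It was the most abundant of the 10 transcripts in MEFs, at 282, 301, and 237 FPKM in WT cells on day 0. It was at 188, 165, and 202 on day 2 and then at 153, 141, and 148 on day 4. In Per1-/- cells it lay between 206 and 288 FPKM on day 0, between 163 and 179 on day 2, and between 113 and 127 on day 4. The corresponding ranges in the libraries labelled Per2-/- were 230 to 318, 165 to 171, and 123 to 158. The days were apart in every genotype. The fall over the 4 days was called in each genotype, at -0.88 ± 0.13 in WT, -1.01 ± 0.13 in Per1-/-, and -0.94 ± 0.13 in the libraries labelled Per2-/- (log2, SE, adjusted p 4.29e-06, 8e-07, and 2.2e-06). With libraries scaled to the same FPKM total, the fall in WT cells was -0.48 (adjusted p 0.00517), under the threshold of size. The fall to day 2 lay near the threshold of size, at -0.56, -0.52, and -0.64, with adjusted p-values of 0.000708, 0.00138, and 0.000201, and was called for the last only, where it was -0.31 (adjusted p 0.0626) with libraries scaled to the same FPKM total. Without WT day 0 replicate 3 it was -0.66, without WT day 2 replicate 3 it was -0.63, and without Per1-/- day 0 replicate 2 it was -0.64, all called. Without day 0 replicate 1 of the libraries labelled Per2-/- it was -0.50 there and not called. The fall from day 2 to day 4 was not called in any genotype in the main fit. In Per1-/- cells that fall was -0.49 (adjusted p 0.0342 in limma). It was called there at -0.61 with libraries scaled to the same FPKM total (adjusted p 0.0138).

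Penk encodes proenkephalin, the precursor of the enkephalins and a substrate of these enzymes. In WT cells it was at 27.3, 120, and 23.0 FPKM on day 0, then 83.3, 70.3, and 14.9 on day 2, and then 293, 178, and 40.3 on day 4. Per1-/- libraries were at 18.7, 16.3, and 18.5, then 35.9, 22.6, and 11.7, and then 56.3, 56.9, and 41.8. In the libraries labelled Per2-/- it was at 65.2, 48.1, and 100, then 153, 33.9, and 125, and then 427, 87.4, and 319. Days overlapped in WT libraries and in those labelled Per2-/-, and in Per1-/- cells day 4 lay above both earlier days. The replicates of a group spanned up to 7.27-fold, in WT cells on day 4, and the SE of a change was 0.79 on the log2 scale. The change from day 0 to day 4 was 1.60, 1.52, and 1.75 with adjusted p-values of 0.0822, 0.0990, and 0.0612, and it was not called. It was called without WT day 0 replicate 2 (2.35, adjusted p 0.0182) or WT day 4 replicate 3 (2.43, adjusted p 0.0135), and, in the libraries labelled Per2-/-, without day 4 replicate 2 (2.44, adjusted p 0.0178). With libraries scaled to the same FPKM total it was called at 2.00 in WT libraries and in those labelled Per2-/- (adjusted p 0.0305 and 0.0328). In fits of only the compared groups it was called in Per1-/- cells and the libraries labelled Per2-/- (adjusted p 0.00063 and 0.0466). With a block for replicate number within genotype, it was called in each genotype (SE 0.46, adjusted p 0.0066, 0.0091, and 0.0039 in limma). The labels do not say that a replicate number marks a shared culture. Penk overlaps the transcript A830012C17Rik on the opposite strand, and reads from shared stretches cannot be told apart in these nondirectional libraries.

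**Figure D4:**
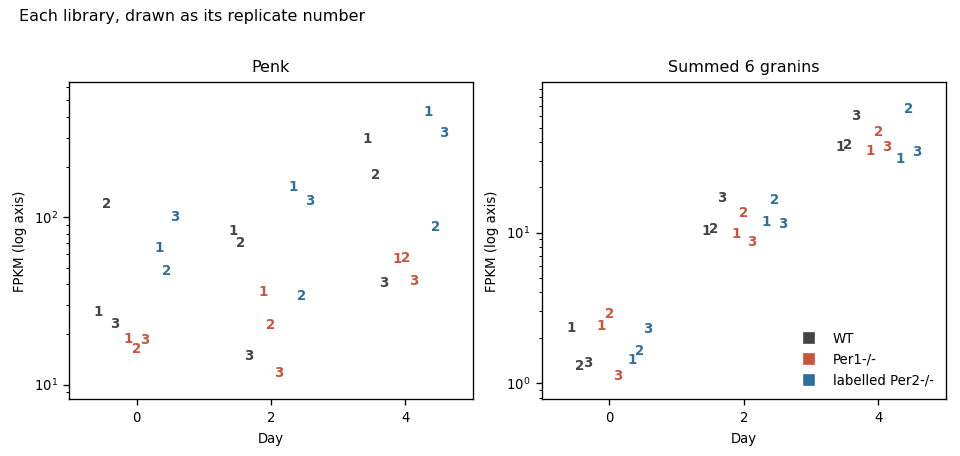
Penk (left) and the sum of 6 granins (right) in each library, drawn as its replicate number, by day and genotype (FPKM, log axes). WT replicate 3 and replicate 2 of the libraries labelled Per2-/- had the lowest Penk of their groups on each day and the highest granin sums on days 2 and 4.

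In WT libraries and in those labelled Per2-/-, the library that led the granin sum of day 4 had the lowest Penk. WT replicate 3 was highest in granins and lowest in Penk on days 2 and 4, with 59.7 FPKM of granins and 40.3 of Penk on day 4. Replicate 2 of the libraries labelled Per2-/- did the same, with 66.4 and 87.4 FPKM. In Per1-/- cells, replicate 2 had the highest granin sum and the highest Penk of day 4, with 47.0 and 56.9 FPKM. These are descriptions of 3 libraries a group.

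The order of levels shifted with the days. On day 0 the order of means in WT cells was Cpe, Penk, Vgf, and then Chgb, Scg2, Pcsk1, Scg5, Scg3, Chga, and Pcsk2, and each neighbouring pair of the last 7 overlapped. On day 2 it was Cpe at 185 FPKM, Penk at 56.1, Scg5 at 7.17, Chgb at 3.12, Scg3 at 0.915, Chga at 0.890, Pcsk2 at 0.565, Scg2 at 0.285, Vgf at 0.219, and Pcsk1 at 0.0918. Of these, Scg3 and Chga overlapped, as did Scg2 with Vgf and Vgf with Pcsk1. On day 4 Penk at 170 FPKM and Cpe at 148 overlapped, as did Chgb at 16.4 with Scg5 at 14.7. Scg3 at 5.33, Scg2 at 4.24, Chga at 3.37, and Pcsk2 at 2.85 overlapped with their neighbours, and Vgf at 1.01 and Pcsk1 at 0.187 were below them.

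Across the 27 libraries, the course of Scg5 on the log2 scale was followed closely by that of Podxl2 (Pearson's r 0.988), Ap3b2 (0.987), Slc22a17 (0.986), and Evi5l (0.985) among the genes named outside the 10. Of the 10, Chgb (0.951), Chga (0.940), Scg3 (0.929), and Pcsk2 (0.908) came closest. Scg2 followed at 0.736, Pcsk1 at 0.593, and Penk at 0.343, while Vgf was at -0.398 and Cpe at -0.894. The libraries fall into 3 days, which these values share, and they are given as a description.

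By step, 5 of the 9 tested genes were called higher and 1 lower from day 0 to day 2 in WT cells, against 20.8% and 19.7% of all genes. From day 2 to day 4 few genes of the table were called. There 7 of 9 were called higher in WT cells against 1.62% of all genes, 6 of 9 in Per1-/- cells against 1.38%, and 6 of 9 in the libraries labelled Per2-/- against 2.32%. With a pseudocount of 0.01 these counts were 3, 4, and 4. Because the filter favours genes that rose to day 4, they are given as a description. With libraries scaled to the same FPKM total, 181 genes were higher and 252 lower in WT cells instead of 242 and 237, 155 and 376 in Per1-/- cells instead of 206 and 158, and 274 and 411 in the libraries labelled Per2-/- instead of 346 and 260. In the main fit, none of the 9 was called lower, against 1.59%, 1.06%, and 1.74% of all genes. With libraries scaled to the same FPKM total, Cpe was called lower in Per1-/- cells (-0.61, adjusted p 0.0138 in limma). The median log2 change of the 9 genes in that step was 1.79, 2.16, and 1.67, and that of all tested genes in WT cells was -0.01. In the first step, 6 and 5 of the 9 were higher in Per1-/- cells and the libraries labelled Per2-/-, against 20.8% and 18.7% of all genes, and 1 and 2 were lower, against 18.8% and 16.8%. Those not called in the step from day 2 to day 4 in the main fit were Penk and Cpe, and Scg5 outside WT cells.

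Genes that act beside them moved less uniformly. Of 15 other genes of prohormone processing, all tested, 7 were called higher and 4 lower in WT cells from day 0 to day 4, with a median log2 change of 0.02. Of all tested genes, 22.9% were higher and 20.9% lower. Pcsk1n, which encodes the convertase inhibitor proSAAS, rose from 0.210 ± 0.150 (SD, n = 3) to 2.58 ± 0.50 FPKM (log2 3.24 ± 0.32 SE). Furin, the convertase of the constitutive route, fell from 32.7 ± 3.0 to 16.3 ± 0.69 FPKM (adjusted p 2.49e-08 in limma), and fell in Per1-/- cells by 0.94 and in the libraries labelled Per2-/- by 0.74. Pam, which amidates peptides, was called in WT cells at 0.59 ± 0.19, next to the threshold, and was at 0.52 and 0.48 in the other groups. The largest other rises in WT cells were those of Cpz (2.79), Cpxm2 (2.69), Pcsk5 (1.91), and Cpxm1 (1.64), carboxypeptidases of the same family as Cpe or catalytically inactive relatives of it, and a convertase made by many tissues. Ctsl, a lysosomal protease, fell by 1.20, and Aebp1 fell by 1.16. Enzymes near the neuroendocrine convertases thus went both up and down.

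Of 25 genes of dense core vesicles, 19 were tested, and 9 were called higher and 2 lower in WT cells from day 0 to day 4, with a median log2 change of 0.52 against -0.02 for all genes, of which 22.9% were higher and 20.9% lower. The vesicle proteins Syt9 (4.15 ± 0.39) and Syt4 (4.12 ± 0.43), the priming factor Cadps (3.88 ± 0.31), Rundc3a (3.83 ± 0.23), Resp18 (3.66 ± 0.55), and Hid1 (2.34 ± 0.34) rose most. Syt9 and Cadps rose in the first step in WT cells, by 3.77 and 3.48. Ptprn, which encodes a granule membrane protein, fell by 1.85 and Rab27b, a granule docking factor, fell by 1.58. Of the 19 tested genes, 9 were called higher and 3 lower in Per1-/- cells, against 22.6% and 20.4% of all genes. In the libraries labelled Per2-/-, 10 were higher and 3 lower, against 21.6% and 18.8%. Genes low on some days can pass the filter only through the other days, so the counts of this list are a description.

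**Figure D5:**
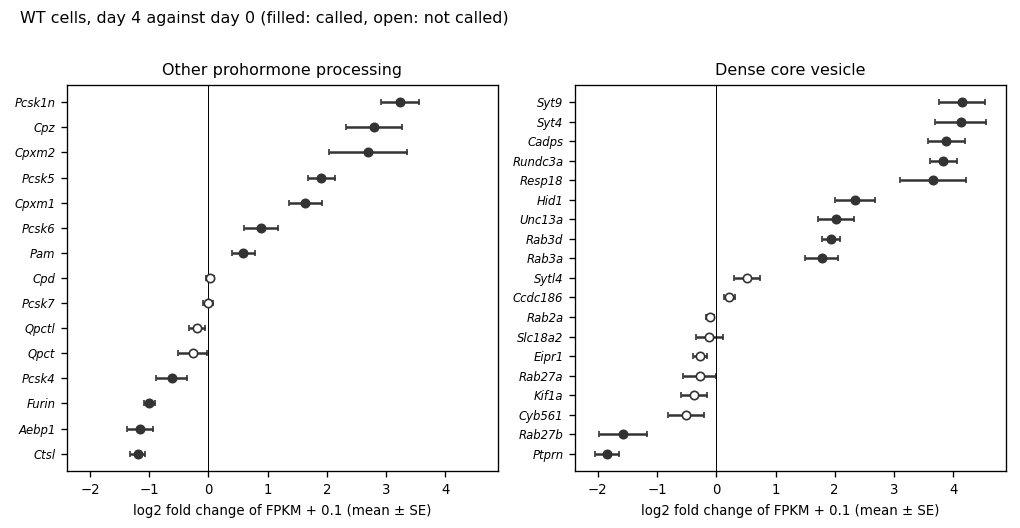
Log2 fold change of FPKM + 0.1 in WT cells from day 0 to day 4 for 15 other prohormone processing genes (left) and the 19 tested dense core vesicle genes (right), with SE bars from limma (3 libraries per day). Filled points were called. Pcsk1n led the left panel at 3.24, and Syt9 and Syt4 led the right at 4.15 and 4.12, while Ptprn fell by 1.85.

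Of 40 other precursors of neuropeptides and peptide hormones, 13 reached the filter, and 5 were called higher and 4 lower in WT cells over the 4 days, against the same 22.9% and 20.9% of all genes. Genes low on some days can pass the filter only through the other days and then have to differ. The counts of these precursors and of the regulators below are thus a description. Gal, the galanin precursor, rose by 5.91, Nts, the neurotensin precursor, by 5.34, Gcg, which encodes proglucagon, by 4.98, and Calca by 3.16 on the log2 scale. The cardiovascular peptides Nppb and Edn1 fell by 4.11 and 3.63, and Cck fell by 2.28. None of 4 opioid receptor genes, whose products bind the peptides of Penk and related precursors, reached the filter, and Oprk1 was at 0.015 FPKM in WT cells on day 4. Of 9 regulators, 7 were tested and 5 rose in WT cells, against 22.9% of all genes. Pou3f2, which encodes Brn2, (10.49) and Myt1l (3.57) are on the viruses, whose RNA and that of the endogenous genes cannot be told apart. Insm1, a zinc finger factor of neuroendocrine cells, rose by 7.38, from 0.0052 to 17.8 FPKM, and was at 22.5 FPKM on day 2. Rest, the repressor of neuronal genes including several granins, was at 13.1 ± 0.8 FPKM on day 0 and 13.0 ± 0.95 on day 4 in WT cells (SD, n = 3), a log2 change of -0.01.

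Markers of sympathoadrenal, pancreatic and gut endocrine, and endothelial cells were low in sum, and their part in the granin levels was not tested. The 10 sympathoadrenal markers summed to 7.61 to 15.7 FPKM on day 0 and 5.10 to 12.8 on day 4. Of the 3 that were tested, 0 were called higher and 2 lower in WT cells, against 22.9% and 20.9% of all genes. Th and Dbh, which make catecholamines, were at 0.188 and 0.0265 FPKM in WT cells on day 4. The 10 pancreatic and gut endocrine markers summed to 0.170 to 0.848 FPKM on day 0 and 2.47 to 13.8 on day 4, without overlap, and Gcg was their sole tested gene. The 6 endothelial markers summed to 1.98 to 3.57 FPKM on day 0 and 3.46 to 11.0 on day 4. Of the 2 that were tested, 1 rose and 1 fell in WT cells, against the same shares of all genes. With so few tested genes, these counts are a description.

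Between genotypes, 0 of the 9 tested genes were called on any day in 81 comparisons with limma. The lowest adjusted p was 0.218, and 9 comparisons had an unadjusted p under 0.05. The backgrounds were small as well. At the same thresholds, the study reported many more genes that differed between genotypes. It tested counts by another method, which was not run here. The fits used here called few genes between genotypes, so 0 calls among the 9 genes do not show equal levels. Per1-/- cells against WT cells had 2, 1, and 4 genes called on days 0, 2, and 4, or 0.0134%, 0.0067%, and 0.0268% of those tested. The libraries labelled Per2-/- against WT had 1, 4, and 1, or 0.0067%, 0.0268%, and 0.0067%, and Per1-/- cells against them had 3, 11, and 83, or 0.0201%, 0.0737%, and 0.556%. At an unadjusted p under 0.05, the shares of all genes on days 0, 2, and 4 were 4.82%, 2.75%, and 6.19% for Per1-/- against WT cells. They were 3.94%, 2.87%, and 3.42% for the libraries labelled Per2-/- against WT, and 5.97%, 8.22%, and 13.2% for Per1-/- cells against those. Voom weights on the fragments gave 0 calls among the 9 genes too. On day 4, Chgb differed by -0.16 ± 0.36 between Per1-/- and WT cells, Chga by -0.02 ± 0.32, Scg3 by -0.18 ± 0.35, and Scg5 by -0.17 ± 0.30 (log2, SE). Differences of the size of the threshold lie within 2 SE of these values for each of the 4 genes.

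The 9 differences with an unadjusted p under 0.05 were in Scg5, Penk, Scg2, Chgb, and Cpe. On day 0, Scg5 was higher in the libraries labelled Per2-/- (8, 7, and 10 fragments) and in Per1-/- cells (11, 6, and 3) than in WT cells (1, 3, and 1), with log2 differences of 1.40 ± 0.30 (adjusted p 0.254) and 1.15 ± 0.30 (adjusted p 0.761). Neither was called. With a pseudocount of 0.01, both were called. Each value comes from at most 11 fragments, and the highest WT and the lowest Per1-/- library both had 3, although their FPKM did not overlap (0.0924 and 0.130). On day 2 the differences in Scg5 were 0.10 ± 0.30 and -0.17 ± 0.30. Penk was lower in Per1-/- cells than in the libraries labelled Per2-/- on days 0, 2, and 4 by log2 differences of -1.93, -2.02, and -2.16, each ± 0.79, with adjusted p-values of 0.800, 0.445, and 0.218. On day 0 and day 4 the libraries of both groups did not overlap, and on day 2 they did. Scg2 on day 0 differed by 1.16 ± 0.44 between the libraries labelled Per2-/- and WT cells, and by -1.18 ± 0.44 between Per1-/- cells and those libraries (log2, SE). Without the labelled Per2-/- library that stood apart, these differences were 0.59 and -0.61. Chgb on day 0 differed by -0.80 ± 0.36 between the libraries labelled Per2-/- and WT cells, from at most 12 fragments a library. Cpe was lower in Per1-/- than in WT cells on day 4, by 0.28 ± 0.13 on the log2 scale, with an adjusted p of 0.775.

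The change over the days was compared between genotypes by interaction contrasts, in which 0 of 14932 genes were called in any of 6 contrasts, with 306 to 895 genes at an unadjusted p under 0.05. Among the 9 genes, 5 of 54 tests had an unadjusted p under 0.05, while 2.05%, 4.49%, and 2.91% of all genes did for the change to day 2 (Per1-/- against WT, Per1-/- against labelled Per2-/-, and labelled Per2-/- against WT) and 3.35%, 5.99%, and 2.61% did for the change to day 4. Called genes made up 0.0% in each contrast. Of these, 4 were for Scg5, whose rise was smaller by 1.30 to 1.49 on the log2 scale in both other groups than in WT cells, and its day 0 level was the lowest in WT cells. Scg2 from day 0 to day 2 in Per1-/- cells against the libraries labelled Per2-/- was the other, at 1.46 ± 0.63, and it involves the library of day 0 that stood apart. Macrophage marker sums on day 4 were 1237 to 2215 FPKM in Per1-/- cells, 610 to 1105 in WT cells, and 469 to 814 in the libraries labelled Per2-/-, and their part in these comparisons was not tested.

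Among the listed genes outside the 10, Cck and Nts were called between genotypes, both on day 4 and both in the contrast of Per1-/- with labelled Per2-/- libraries. Cck, the cholecystokinin precursor, was at 18.3 ± 17.5 against 2.38 ± 1.24 FPKM (SD, n = 3), a log2 difference of 2.61 ± 0.54 with an adjusted p of 0.0237. Nts was at 3.66 ± 1.6 against 19.2 ± 12 FPKM, a difference of -2.25 ± 0.50 with an adjusted p of 0.0357. The call of Cck was lost in 4 of 6 fits without a library, without Per1-/- replicates 1 or 3 or replicates 1 or 3 of those labelled Per2-/- (adjusted p 0.0563 to 0.172), and that of Nts in 6 of 6, without each of the 6 libraries (0.0560 to 0.129).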

How the data were processed

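Bulk RNA-seq of 27 libraries was used, with genotype, day, and replicate number taken from the sample labels, which call the replicates biological. The values were FPKM as the authors deposited them. According to the methods and the submitters' processing notes, reads were aligned to GRCm38 with HISAT2 2.0.5 and counted with featureCounts 1.5.0-p3, and the authors tested counts with DESeq2, which was not run here. Whole fragments were recovered from FPKM and the deposited gene lengths in 100% of values, within 0.001 fragments. Their Poisson intervals cover counting error only.

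FPKM was converted to log2(FPKM + 0.1), and genes that averaged 0.5 FPKM or more were fitted with limma 3.58.1 in R 4.3.3 (lmFit, contrasts.fit, and eBayes with trend) on 9 group means without a block. Benjamini-Hochberg adjustment of p-values ran over all 14932 tested genes of a contrast. The steps were tested on simulated data. Python 3.11.15 with numpy 2.4.6, pandas 2.3.3, and matplotlib 3.10.9 was used for sums and plots. With 3 libraries against 3, an exact permutation test cannot give a two-sided p below 0.1, so none was used for single values.

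The 10 genes and all lists were chosen with earlier results of these data known. Named genes are the 10, the called genes of each pathway list with the largest change in WT cells over the 4 days (at most 6), Pcsk1n, Pam, and Furin, listed genes called between genotypes, Per1 and Per2, and the 5 genes most correlated with Scg5, except for items that are not reported here. Rab27b, Ptprn, Aebp1, Rest, Oprk1, and markers named for their level were chosen after their values were seen. Alternatives were pseudocounts of 1 and 0.01, other filters, FPKM rescaled to a common sum, voom weights on fragments, a replicate block, a fit of only the compared groups, no minimum fold change, and each library left out in turn. Other assays of the study were not analysed here.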

Additional observations from a re-analysis of the deposited data

How the results depend on the processing

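Of 300 counts of called genes under alternatives other than leaving out a library, 295 stayed within 1.5 times the value reported. These include 79 counts between genotypes and 54 for interactions that were 0 in both fits, so they say little about stability. Among single changes under these alternatives, 28 calls were lost, 20 were gained, and 2 changes turned sign, while 724 kept sign and call. With a pseudocount of 0.01, the count of the 9 genes called from day 2 to day 4 in WT cells was 3 instead of 7, and Scg5 was called on day 0 for Per1-/- and for labelled Per2-/- libraries against WT (1 call each instead of 0). With no filter, 14 precursor genes were called in WT libraries and 15 in those labelled Per2-/- over the 4 days, instead of 9 each, because more genes were tested. Rescaling FPKM to a common sum moved the median log2 change of all genes from day 0 to day 4 from near 0 to 0.37, 0.26, and 0.25 in WT, Per1-/-, and labelled Per2-/- libraries, and the WT split of higher and lower calls from 3414 and 3120 to 5485 and 1511. Under it, Scg2 from day 0 to day 2 in the libraries labelled Per2-/- was 0.17 and Vgf from day 0 to day 4 in WT cells was 0.029. The cause was not tested. The counts of the 9 genes over days stayed within 1.5 times when each library was left out, and those between genotypes stayed at 0. Among single changes in those fits, 27 calls were lost and 7 were gained. Single changes that turned sign when a library was left out, none of them called, ranged from -0.37 to 0.49 for Scg2 from day 0 to day 2 in the libraries labelled Per2-/-, from -0.15 to 0.33 for Vgf there from day 0 to day 4, and, for Penk from day 0 to day 2, from -0.38 to 0.85 in WT, -0.13 to 0.68 in Per1-/-, and -0.066 to 1.02 in labelled Per2-/- libraries. Libraries that share a genotype and a replicate number deviated together in 14 of 27 pairs of days (r over 0.1, range -0.02 to 0.29), and those that share a day and a number in 3 of 27, so the numbers were not taken to pair the samples. As a hint from the data and not the design, a library correlated best with its own number in 48 of 54 comparisons with another day of its genotype. With a replicate block, 8 of the 9 genes were called over the 4 days in each genotype instead of 7, the added gene being Penk, and 0 were called between genotypes.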
